A study of Mus musculus with 14 samples.

Results

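Chromatin accessibility was compared between eTregs that lacked Atg14 and control eTregs, in 7 of the 14 bulk ATAC-seq libraries of the series. The members are all libraries labelled as eTregs, 3 control and 4 Atg14-deficient, and the other 7 libraries are cTregs of the same genotypes. The donors were control (Foxp3CreAtg14+/fl) and Foxp3CreAtg14fl/fl mice, so the controls also carried Cre and a floxed allele. CD45.2+ BM of either genotype was mixed with CD45.1+ WT spike BM and transferred into sublethally irradiated Rag1–/– mice, which lack T and B cells of their own. After reconstitution, eTregs were sorted from the spleen as CD45.2+CD4+Foxp3-YFP+CD44highCD62Llow cells. All lines had a C57BL/6 background according to the methods. Foxp3 drives Cre, which directs the deletion to cells that express or have expressed Foxp3. Some Foxp3CreAtg14fl/fl mice of the study also carried a null allele of Atg14, and whether any donor of these libraries did is not given in the sources used here. The study's methods count as many chimeras of each genotype as there are libraries in either cell state, so the cTreg and eTreg libraries may come from the same mice. The sources used here do not say which libraries share a mouse, and p-values measure the spread between these samples.

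Atg14 is the subunit that directs the lipid kinase Vps34 to the sites where autophagosomes begin, and cells without it form few autophagosomes. cTregs (central Tregs) carry CD62L and home to lymphoid organs. eTregs (effector Tregs) are activated by antigen, have lost CD62L and enter tissues. In ATAC-seq a transposase inserts adaptors where DNA is open, and the reads counted over a region rise with its accessibility. It measures neither RNA nor protein, and each region is named here after the RefSeq gene with the nearest start, which need not be the gene it acts on.

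Total counts in the 7 eTreg libraries were between 2390268 and 5548189. The defining Treg genes (Foxp3, Il2ra, Ctla4, Ikzf2, Cd4, Cd3e) all had regions, and the summed level of their 54 regions was 490 to 543 CPM (counts scaled to the same total in each library) in controls and 594 to 653 in Atg14-deficient eTregs. Markers of other cells had fewer regions, and per region their control levels were 3.00 to 4.88 CPM for B cells, 5.91 to 6.52 for erythroid cells and megakaryocytes, 6.98 to 7.23 for myeloid cells and 9.18 to 10.04 for CD8 T and NK cells, against 9.08 to 10.05 for the Treg genes. The level per region thus did not set the Treg genes apart from all other markers. The 6 B cell regions summed to 18.02 to 29.3 CPM in controls and 23.6 to 37.2 in Atg14-deficient eTregs, and the 13 CD8 T and NK cell regions to 119 to 130 and 117 to 132. The 6 erythroid and megakaryocyte regions summed to 35.5 to 39.1 and 36.3 to 49.3 CPM, with a median log2 fold change of 0.49. The 11 myeloid regions summed to 76.8 to 79.5 CPM in controls and 79.9 to 99.7 in Atg14-deficient eTregs, without overlap (as in 4.97% of all single regions), and 2 of them (18.2%) were more accessible at the unadjusted threshold given below, against 4.59% of all regions. The part of these cells in the results was not tested.

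The targeted gene itself had 5 regions. Its promoter region was at 19.8, 21.5 and 31.2 CPM in controls and 22.2, 20.9, 26.7 and 29.3 in Atg14-deficient eTregs, and the groups overlapped. An intronic Atg14 region was at 3.9, 6.6 and 3.6 CPM in controls and 8.4, 15.1, 11.4 and 7.2 in Atg14-deficient eTregs, without overlap (log2 fold change 1.15 ± 0.37, edgeR adjusted p = 0.428). The sum of the Atg14 regions had a log2 fold change of 0.07 ± 0.12 (SE). Which exon was floxed is not given in the sources used here, so these regions do not check the deletion.

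Of 61366 regions tested, 14 passed an adjusted p of 0.05 at a log2 fold change over 0.5 in size. Of these, 13 were more accessible in Atg14-deficient eTregs (0.0212% of all regions) and 1 was less accessible (0.00163%). The split between more and less accessible depended on the scaling and the tool, at 26 and 22 with the DESeq2 Wald test, 11 and 9 with GC-content offsets and 13 and 7 with loess offsets. In all 14, which the test itself chose, the libraries of the genotypes did not overlap. Over all regions, 4.97% had every Atg14-deficient eTreg library above every control and 3.51% every one below. They lay in 4 promoters, 3 introns and 7 intergenic stretches, and 5 of them were on chromosome 17. In 6 of the 14 the call was kept in all 15 refits with another scaling, tool or set of samples, the replicate block or a left-out library. These were both H2-M3 regions, the upstream Bmf region and those of Zfp932, Slc22a8 and 4930445E18Rik. Over all 14, the call was lost in 57 of 210 such refits, where a missing adjusted p counted as lost. Other filters and thinned counts were not among these refits. In 12 of the 14, every control eTreg library was at or below 10 CPM.

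**Figure D1:**
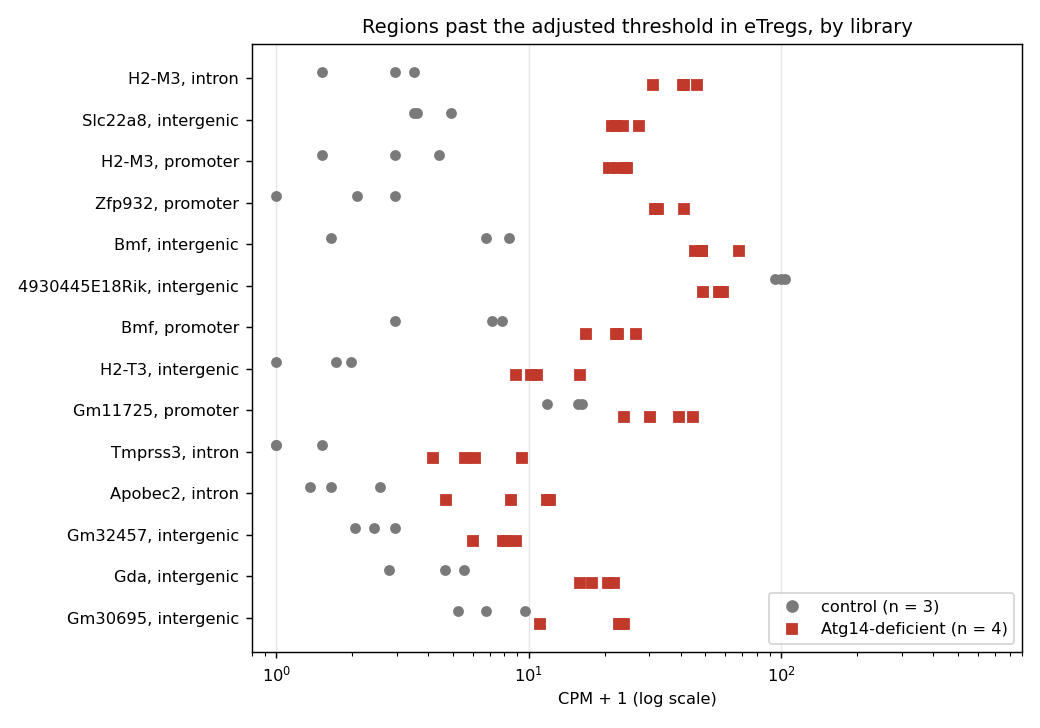
Level of the 14 regions past the adjusted threshold in each eTreg library, as CPM + 1 on a log axis, named by nearest gene and position and ordered by p. The Atg14-deficient libraries (squares) lie above the controls (circles) in every region but that of 4930445E18Rik, where they lie below.

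Regions of non-classical MHC class I genes, some of which present peptides or lipids to specialised T cells, were among the most changed. An intronic region of H2-M3, which presents formylated bacterial peptides (GRCm38 chr17:37270769-37271193), was at 2.0, 0.5 and 2.5 CPM in controls. It was at 40.2, 30.1, 39.7 and 45.2 CPM in Atg14-deficient eTregs. The log2 fold change was 4.46 ± 0.34 (SE; edgeR adjusted p = 3.41e-09). The H2-M3 promoter region rose from 1.97 ± 1.45 CPM (SD, n = 3) to 22.02 ± 1.72 (n = 4). A region upstream of H2-T3 rose from 0.566 ± 0.506 to 10.5 ± 3.10 CPM (log2 fold change 4.14 ± 0.71), a call lost in 6 of the 15 refits. Genes of this family resemble each other in sequence, and whether reads were shared between copies was not tested.

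Bmf encodes a BH3-only protein that promotes apoptosis by binding BCL2 relatives. A region upstream of its start (chr2:118554247-118554822) was at 0.7, 7.3 and 5.8 CPM in controls and at 66.8, 47.7, 47.6 and 44.4 in Atg14-deficient eTregs. The lowest Atg14-deficient library was thus well above the highest control. The log2 fold change was 3.40 ± 0.36 (edgeR adjusted p = 0.000104). The Bmf promoter region rose as well, from 4.97 ± 2.63 to 21.0 ± 3.96 CPM, a call lost without control library 1. Over all 7 Bmf regions, the sum rose from 25.5 ± 8.18 to 100.7 ± 11.8 CPM.

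The promoter of Zfp932, a zinc finger gene, had the largest fold change of the 14 regions in the main fit. It was at 2.0, 0.0 and 1.1 CPM in controls and 30.6, 40.2, 31.0 and 31.3 in Atg14-deficient eTregs (log2 fold change 5.04 ± 0.52). Without control library 2 its log2 fold change was 4.51, against 7.19 for the region nearest Tmprss3, where controls were also near 0. A region far upstream of Slc22a8, an organic anion transporter, rose from 3.02 ± 0.769 to 22.6 ± 2.60 CPM. The region nearest Gda, which encodes guanine deaminase, rose from 3.34 ± 1.41 to 17.97 ± 2.58 CPM. This call was lost when any 1 of the 7 eTreg libraries was left out (edgeR adjusted p = 0.0630 to 0.289). The remaining more accessible regions were nearest Tmprss3, Apobec2, Gm11725 (which overlaps Tha1), Gm32457 and Gm30695, with log2 fold changes of 4.74, 3.27, 1.32, 2.20 and 1.60. In the same order, these calls were lost in 6, 4, 8, 13 and 10 of the 15 refits. For Tmprss3 these include the DESeq2 Wald test, which gave a log2 fold change of 4.99 but no adjusted p. With TMM scaling the Gm32457 and Gm30695 regions did not pass (edgeR adjusted p = 0.0535 for both), and left-out libraries gave adjusted p-values up to 0.269 and 0.566 for them.

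The single less accessible region lay between genes, nearest the uncharacterised 4930445E18Rik (chr15:25269480-25270126). It was at 102.8, 93.7 and 98.4 CPM in controls and at 56.0, 57.7, 55.6 and 48.0 in Atg14-deficient eTregs. This was the highest level of the 14 regions in control eTregs, and it fell by 0.86 on the log2 scale (SE 0.12; edgeR adjusted p = 0.00134).

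Just inside the threshold were the regions of Gda and Gm30695 (adjusted p = 0.0488 for both). Just outside were regions of Gm52297, Fbxl5 and Mtmr9, with adjusted p-values of 0.0537, 0.0840 and 0.0863.

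All 14 regions had a fold change in the same direction in Atg14-deficient cTregs, which are other libraries of the same genotypes and may come from the same mice, so that they are not an independent set of animals. In cTregs, 6 of them passed the adjusted p, as did 0.0163% of all regions. In 12 the genotypes did not overlap in cTregs, against 3.05% of all regions with Atg14-deficient libraries above and 2.45% with them below. The H2-M3 intron reached 4.49 ± 0.34 on the log2 scale in cTregs, the Slc22a8 region 3.07 ± 0.31 and the Zfp932 promoter 4.06 ± 0.49. The 4930445E18Rik region had -0.08 ± 0.12 in cTregs, with controls at 99.2, 83.1 and 77.6 CPM and Atg14-deficient cTregs at 74.3, 89.5, 87.3 and 76.5. The Gm11725 promoter had 0.22 ± 0.23. The difference between the cell states was not tested. In 10 of the 13 more accessible regions, among them those of H2-M3, Zfp932 and Slc22a8, every control library of both states was at or below 10 CPM. Loss of Atg14 and any inherited sequence difference between the donor lines at these regions cannot be told apart from the counts.

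**Figure D2:**
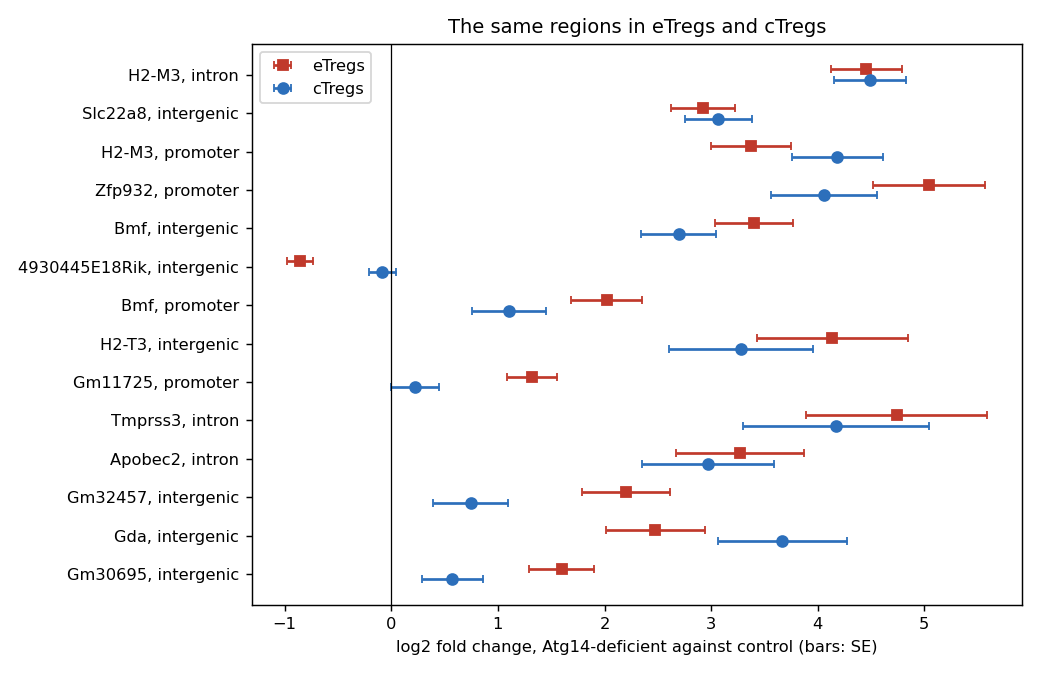
Log2 fold change of Atg14-deficient against control (bars are SE) for the same 14 regions in eTregs (squares) and cTregs (circles). The regions of H2-M3, Slc22a8, Zfp932, H2-T3, Tmprss3 and Apobec2 have log2 fold changes of 2.92 or more in both states, whereas 4930445E18Rik is near 0 in cTregs.

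Among the promoters with the smallest p, a pair lay on chromosome 14, the chromosome of Atg14 (chr14:47540893-47568434). The promoter of Gmfb, 0.722 Mb from Atg14, was at 17.57, 22.04 and 20.73 CPM in controls and at 6.0, 9.2, 7.4 and 5.7 in Atg14-deficient eTregs (edgeR adjusted p = 0.0930). The promoter of Pnp2, a purine nucleoside phosphorylase gene 3.39 Mb away, was at 16.5 ± 2.97 CPM in controls and 4.32 ± 2.86 in Atg14-deficient eTregs. In cTregs the log2 fold changes were -1.44 ± 0.32 for Gmfb and -2.71 ± 0.46 for Pnp2. Here too, loss of Atg14 and an inherited sequence difference between the donor lines cannot be told apart from the counts.

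At the unadjusted threshold (p below 0.05, log2 fold change beyond 0.5 either way), 2818 regions were more accessible (4.59% of all tested) and 1084 less accessible (1.77%). A p below 0.05 at any fold was found for 7.95% of regions, where 5% are below it with no difference at all. The share of called regions that were more accessible was 72.2% with counts scaled by library total and 60.1% with TMM scaling, which assumes that most regions do not change. The median log2 fold change over all regions was 0.06 with library totals. It was 0.009 with TMM scaling, 0.02 with DESeq2's size factors and -0.003 with loess offsets.

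When counts were summed over all regions nearest a gene, 15 of 21053 genes passed an adjusted p below 0.05. Of these, 11 were more accessible (0.0522%) and 4 less accessible (0.019%). The DESeq2 Wald test on the same counts called 79 gene sums and 48 single regions. Beyond the genes above, Fasl, the ligand that triggers death of cells bearing Fas, rose from 66.4, 70.9 and 71.2 CPM in controls to 111.5, 97.9, 115.4 and 89.9 in Atg14-deficient eTregs. The log2 fold change was 0.58 ± 0.11 (edgeR adjusted p = 0.0392). Ddx6, an RNA helicase of processing bodies, rose from 20.4 ± 2.93 to 40.2 ± 6.22 CPM. Gm15918, on chromosome 14 like Atg14, rose from 30.0 ± 4.68 to 53.8 ± 3.38 CPM. Gm41094, Gm52297 and Pnp2 fell by 1.14, 0.74 and 1.59 on the log2 scale. Of these, Gm41094 and Pnp2 also lie on chromosome 14. In cTregs the log2 fold changes were 0.80 for Gm15918 and -0.12 for Gm41094. Over the 15 gene sums, 51 of 225 refits lost the call, with a missing adjusted p again counted as lost. The losses were 9 of 15 for Fasl and for Gm15918, 5 each for Ddx6, Gm52297 and Pnp2, and 4 for Gm41094. Fasl did not pass with TMM scaling.

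At unadjusted p below 0.05, 6.82% of gene sums were more and 4.42% less accessible. Among the genes with the smallest p that did not pass were Trim30d (32.1 ± 4.92 against 15.7 ± 2.59 CPM), Tmem45a2 (85.2 ± 16.1 against 49.0 ± 6.82), Gm40385 (71.0 ± 10.5 against 41.9 ± 3.48) and Iglon5 (62.3 ± 16.9 against 32.6 ± 8.66), given as control against Atg14-deficient.

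Genes that mark cTregs, the CD62L-bearing state, had 30 more accessible regions and 1 less accessible of 246 (12.2% and 0.407%). The median log2 fold change of these regions was 0.30. The summed level of the 246 regions was 2044, 2258 and 2219 CPM in controls and 2536, 2461, 2633 and 2415 in Atg14-deficient eTregs. No Atg14-deficient library was as low as the highest control. The same held for 5.8% of all gene sums, but a list sum covers more regions. No region near these genes passed the adjusted threshold.

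Among the gene sums of this list, 7 of 18 (38.9%) were more accessible at an unadjusted p below 0.05 and 0 less accessible. Over all gene sums the shares were 6.82% and 4.42%. Ccr7, the receptor that takes T cells into lymph nodes, had 26.7, 40.2 and 32.8 CPM in controls and 55.1, 51.9, 58.5 and 57.8 in Atg14-deficient eTregs (log2 fold change 0.75 ± 0.16, edgeR adjusted p = 0.0652). Klf2, which maintains the receptors for lymphoid homing, had 127 ± 10.7 CPM in controls and 176 ± 8.46 in Atg14-deficient eTregs (adjusted p = 0.0979). Lef1 and Tcf7, partners of beta-catenin, had 205 ± 19.7 against 271 ± 26.2 and 70.4 ± 9.48 against 91.3 ± 11.5 CPM. S1pr1, the exit receptor from lymphoid organs, had 231 ± 8.49 against 282 ± 25.8.

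Ccr7 and Tcf7 lie on chromosome 11, where regions had a median log2 fold change of 0.27 and 9.07% were more accessible against 0.370% less. Chromosome 11 held 4.49%, 4.98% and 4.15% of counts in controls and 5.08%, 4.85%, 5.17% and 5.94% in Atg14-deficient eTregs, so the groups overlapped. Without Atg14-deficient library 4 the median was 0.18. Chromosome 19, which holds the Slc22a8 and Gda regions, had a median log2 fold change of 0.18, with 7.61% of regions more accessible and 0.951% less. It held 2.44%, 2.45% and 2.19% of counts in controls and 2.49%, 2.53%, 2.51% and 2.80% in Atg14-deficient eTregs, without overlap. With each chromosome scaled by its own total, the log2 fold change of Ccr7 was 0.53 and that of Tcf7 0.16, while Klf2 had 0.47 and Lef1 0.43, and the Slc22a8 and Gda regions had 2.79 and 2.35. On that scaling the calls of the Gda region, of the Gm32457 region and of the Gm11725 region on chromosome 11 (log2 fold change 1.10) were lost, with edgeR adjusted p-values of 0.0552, 0.0553 and 0.106. It left 29 of the cTreg-associated regions more accessible and 3 less, and TMM scaling or GC-content offsets left 27 and 3. Why chromosomes 11 and 19 stand apart was not tested.

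**Figure D3:**
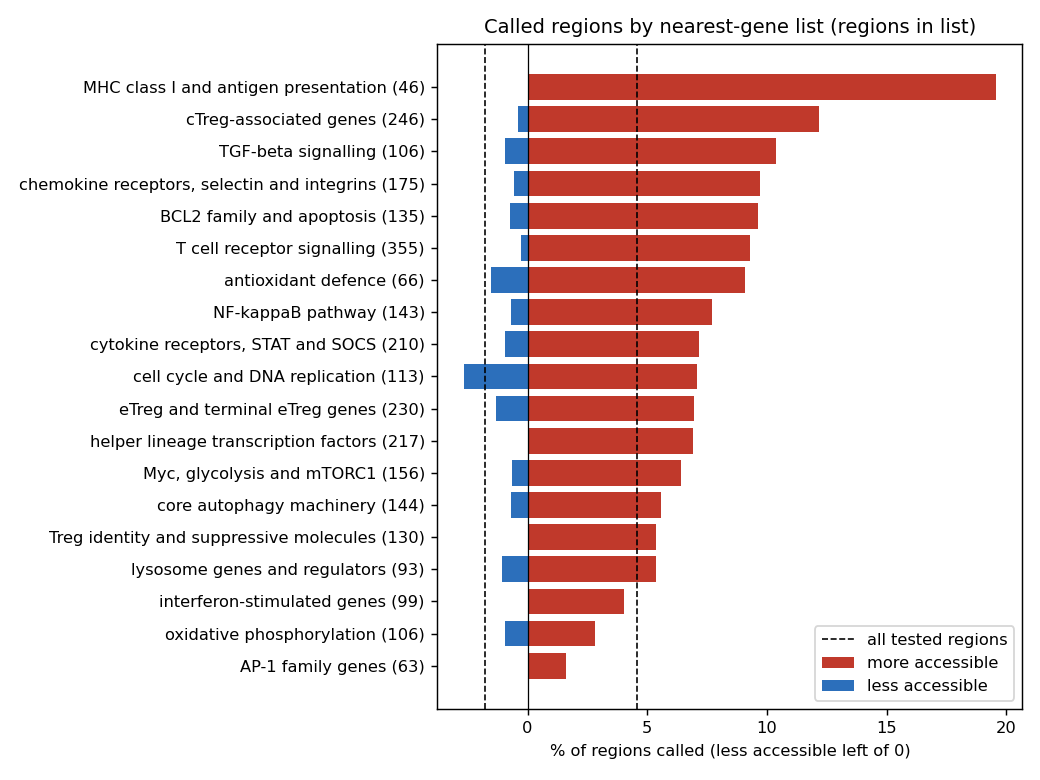
Percentage of the regions nearest the genes of each list that were called more accessible (right of 0) or less accessible (left of 0) at the unadjusted threshold, with the number of regions in brackets. Dashed lines mark 4.59% and 1.77%, the shares over all tested regions.

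T cell receptor signalling genes had 33 more accessible regions and 1 less accessible of 355 (9.30% and 0.282%), with a median log2 fold change of 0.26. These were 25 and 2 with TMM scaling, 22 and 3 with GC-content offsets, and 24 and 1 of 310 within 50 kb of a gene start. Their sums were 5338 to 5783 CPM in controls and 5679 to 6589 in Atg14-deficient eTregs, and the groups overlapped. Cd28, the costimulatory receptor, had 74.2, 95.8 and 95.7 CPM in controls and 164, 123, 144 and 112 in Atg14-deficient eTregs (log2 fold change 0.61 ± 0.13, edgeR adjusted p = 0.0674). Ptpn22, a phosphatase that restrains the receptor, had 133 ± 13.6 against 185 ± 20.0 CPM. The 3 Nr4a genes, which the receptor induces early, had log2 fold changes of 0.13, -0.14 and -0.19 for Nr4a1, Nr4a2 and Nr4a3, and none passed an unadjusted p of 0.05.

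**Figure D4:**
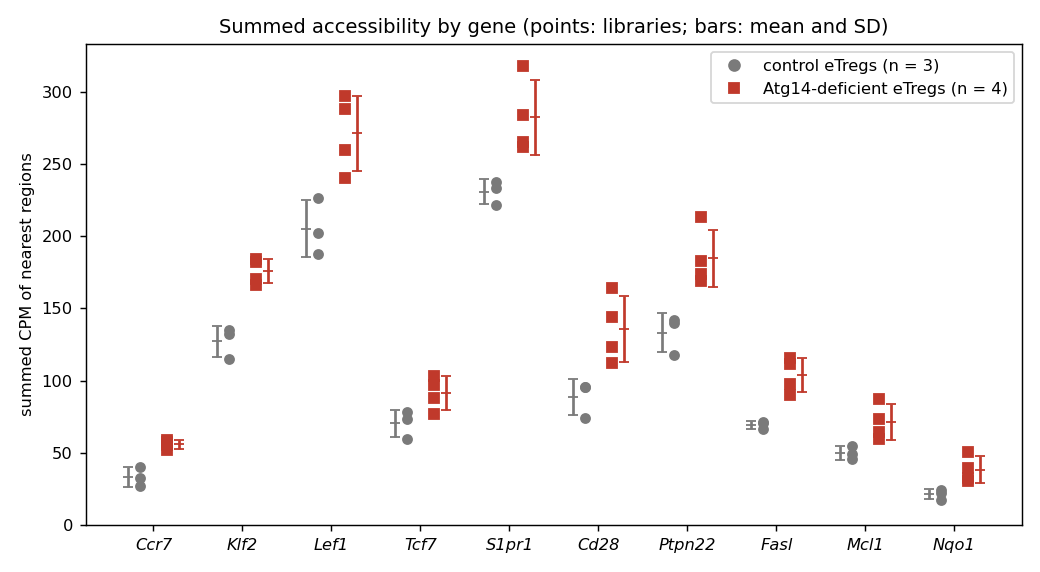
Summed CPM of the regions nearest 10 genes of the lists, chosen after their values were seen, in each eTreg library (points) with mean and SD (bars), controls as circles and Atg14-deficient as squares. For every gene but Tcf7, each Atg14-deficient library lies above each control, as in 5.8% of all gene sums (4.6% have each below).

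MHC class I and antigen presentation genes had 9 more accessible regions of 46 (19.6%) and 0 less accessible. The H2 genes of this list lie on chromosome 17, where 6.09% of all regions were more accessible and 1.92% less. For these genes too, loss of Atg14 and an inherited sequence difference between the donor lines cannot be told apart. The sums were 680, 719 and 694 CPM in controls and 877, 872, 851 and 985 in Atg14-deficient eTregs, including the 2 regions of H2-M3 described above. Nlrc5, the activator of class I transcription, had 85.4 ± 15.4 against 126 ± 25.9 CPM. H2-K1 and B2m, the chains of classical class I molecules, had log2 fold changes of 0.11 ± 0.16 and 0.06 ± 0.12.

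BCL2 family and apoptosis genes had 13 more accessible regions and 1 less accessible of 135 (9.63% and 0.741%). Beside Bmf and Fasl, the sum of Mcl1, a survival member of the family, was 49.8 ± 4.75 CPM in controls and 71.3 ± 12.2 in Atg14-deficient eTregs. The sum of Bcl2l11, which encodes the death-promoting Bim, had a log2 fold change of 0.01 ± 0.10. A single region nearest Bcl2l11, 33765 bp upstream of its start in an intron of Acoxl, was less accessible at the unadjusted threshold. It was at 25.4, 29.4 and 18.6 CPM in controls and 17.4, 14.2, 15.4 and 13.4 in Atg14-deficient eTregs (edgeR adjusted p = 0.457).

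Chemokine receptor, selectin and integrin genes had 17 more accessible regions and 1 less of 175 (9.71% and 0.571%), and TGF-beta signalling genes 11 and 1 of 106 (10.4% and 0.943%). The tissue homing receptors Ccr2 and Cxcr6 had log2 fold changes of 0.55 and 0.69, with no adjusted p below 0.05. With TMM scaling the TGF-beta list had 7 and 2, with GC-content offsets 7 and 3, and within 50 kb of a gene start 6 and 1 of 96. Antioxidant genes had 6 and 1 of 66, but 3 and 1 with TMM scaling or GC-content offsets. In this list the promoter region of Nqo1, a quinone reductase, was at 14.96, 19.94 and 16.40 CPM in controls and 24.3, 27.2, 36.0 and 40.6 in Atg14-deficient eTregs (edgeR adjusted p = 0.266).

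eTreg and terminal eTreg genes had 16 more accessible regions and 3 less accessible of 230 (6.96% and 1.30%), with a median log2 fold change of 0.11. With TMM scaling these were 14 and 4 with a median of 0.06, and with GC-content offsets 12 and 3 with a median of 0.06. Prdm1 and Gata3, factors of the effector state, had log2 fold changes of -0.05 ± 0.10 and 0.09 ± 0.10. At an unadjusted p below 0.05 (6.82% of all gene sums more accessible, 4.42% less), 3 of the 25 (12%) were more accessible and 1, Areg, less (4%). The more accessible were Icos, a costimulatory receptor (191 ± 7.44 CPM in controls and 239 ± 25.1 in Atg14-deficient eTregs), Irf4 and Batf, with log2 fold changes of 0.33, 0.32 and 0.35, and none passed the adjusted p. Areg, an epithelial repair factor, had 67.1 ± 10.7 CPM in controls and 47.7 ± 7.41 in Atg14-deficient eTregs (edgeR adjusted p = 0.342). Treg identity genes had 7 more accessible regions and 0 less of 130 (5.38%), while 5 of their 18 gene sums (Ctla4, Ikzf2, Il2ra, Lag3 and Tgfb1) were more accessible at an unadjusted p below 0.05 (27.8%, against 6.82% of all gene sums). The regions of this list summed to 1525 to 1693 CPM in controls and 1705 to 1823 in Atg14-deficient eTregs, apart by a narrow margin. Of all gene sums, 5.8% had each Atg14-deficient library above each control, but a list sum covers more regions. Whether the list sums stay apart with another scaling was not tested. The single Foxp3 region had a log2 fold change of -0.20 ± 0.27. A region upstream of Ctla4, the inhibitory receptor, was at 5.9, 5.2 and 6.5 CPM in controls and 11.99, 15.1, 16.9 and 16.4 in Atg14-deficient eTregs (edgeR adjusted p = 0.227).

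Core autophagy genes had 8 more accessible regions and 1 less accessible of 144 (5.56% and 0.694%), with a median log2 fold change of 0.03. The median was -0.03 with TMM scaling (6 and 2 regions) and -0.04 with GC-content offsets (7 and 2). Pik3c3, which encodes Vps34, and Becn1 had log2 fold changes of -0.04 ± 0.12 and 0.28 ± 0.29. An intronic region of Uvrag, which replaces Atg14 in another Vps34 complex, was at 6.5, 10.5 and 9.0 CPM in controls and at 26.4, 16.3, 23.3 and 23.1 in Atg14-deficient eTregs (edgeR adjusted p = 0.0966), although all Uvrag regions together had a log2 fold change of -0.02 ± 0.09. Lysosome genes had 5 and 1 of 93 (5.38% and 1.08%), and 3 and 3 with GC-content offsets. Oxidative phosphorylation genes had 3 and 1 of 106 (2.83% and 0.943%), and 1 and 2 with TMM scaling or GC-content offsets. Of their 60 gene sums, 1 was more and 5 were less accessible at an unadjusted p below 0.05 (8.33% less, against 4.42% of all gene sums). Interferon-stimulated genes had 4 and 0 of 99 (4.04% more accessible), and 2 and 2 with TMM scaling or GC-content offsets. AP-1 family genes had 1 and 0 of 63 (1.59%). Over all regions the shares were 4.59% and 1.77%. The 5 remaining lists were NF-kappaB with 11 and 1 of 143 (7.69% more accessible), Myc, glycolysis and mTORC1 with 10 and 1 of 156 (6.41%), cell cycle with 8 and 3 of 113 (7.08%), cytokine receptors with 15 and 2 of 210 (7.14%), and helper lineage factors with 15 and 0 of 217 (6.91%), more accessible first.

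Sequence was then compared among the 47165 distal (non-promoter) regions, split into 2328 more accessible, 913 less accessible and the rest. The NR4A site AAAGGTCA, read on either strand within the central 200 bp, was in 1.65% of all distal regions, in 1.25% of those more accessible and in 5.59% of those less accessible (51 regions). NR4A factors are nuclear receptors induced by the T cell receptor, and other nuclear receptors can bind the same letters. Below are the 3 less accessible distal regions with this site that had the smallest p, on the plus strand of GRCm38 with the site in capitals. The first sequence also holds 1 match each to the AP-1 and IRF sites given further on, in lower case.
4930445E18Rik, chr15:25272012-25272211: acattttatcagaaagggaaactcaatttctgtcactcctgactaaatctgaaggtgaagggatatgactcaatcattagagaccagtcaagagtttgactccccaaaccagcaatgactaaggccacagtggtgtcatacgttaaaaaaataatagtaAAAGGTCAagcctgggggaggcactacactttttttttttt
C1ql3, chr2:13129892-13130091: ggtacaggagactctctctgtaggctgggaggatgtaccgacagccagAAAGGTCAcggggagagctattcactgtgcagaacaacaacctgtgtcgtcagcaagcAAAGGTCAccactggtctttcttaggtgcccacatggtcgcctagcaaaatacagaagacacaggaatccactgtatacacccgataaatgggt
Gm41094, chr14:8044852-8045051: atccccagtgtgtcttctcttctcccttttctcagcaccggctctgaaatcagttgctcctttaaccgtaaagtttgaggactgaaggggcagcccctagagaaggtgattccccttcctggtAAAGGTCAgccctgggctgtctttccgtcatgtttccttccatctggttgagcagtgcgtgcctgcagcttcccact

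The C1ql3 region, in an intron of Rsu1, holds the site in 2 places. It was at 36.1, 28.1 and 27.2 CPM in controls and at 12.6, 21.8, 12.7 and 8.7 in Atg14-deficient eTregs (edgeR adjusted p = 0.0992). The 4930445E18Rik region above is close to the less accessible region described first, and was at 26.0, 24.9 and 12.3 CPM in controls and 7.8, 5.9, 5.8 and 8.2 in Atg14-deficient eTregs. The Gm41094 region, in an intron of Abhd6, had a log2 fold change of -1.14 ± 0.27. None of the 3 passed the adjusted threshold.

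The mean level of all 777 distal regions with the NR4A site, relative to all distal regions, was 0.12, 0.08 and 0.02 log2 units in controls and -0.15, -0.05, -0.21 and -0.05 in Atg14-deficient eTregs. The groups did not overlap. The median log2 fold change of these regions was -0.11, against 0.09 for all distal regions. These were -0.17 and 0.03 with TMM scaling, -0.20 and 0.01 with GC-content offsets, and -0.23 and -0.007 with loess offsets.

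The AP-1 site TGACTCA was in 10.98% of distal regions, 8.46% of those more accessible and 13.4% of those less accessible. The NF-kappaB site GGANTTTCC was in 1.55%, 1.37% and 3.18%. Per library the levels of regions with either site overlapped between the genotypes. The less accessible region near 4930445E18Rik that passed the adjusted threshold holds an AP-1 site in its central part, in capitals. It also holds the E2A site CAGCTG, in lower case.
4930445E18Rik, chr15:25269703-25269902: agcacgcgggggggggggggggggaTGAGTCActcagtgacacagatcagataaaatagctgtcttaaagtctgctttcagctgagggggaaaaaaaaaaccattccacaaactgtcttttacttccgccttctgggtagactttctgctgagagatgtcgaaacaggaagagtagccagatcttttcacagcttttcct

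The RUNX site TGTGGTT was in 12% of distal regions, 19.5% of those more accessible and 8.00% of those less accessible. The KLF site GGGTGTGG was in 3.12%, 5.50% and 1.75%, and the TCF/LEF site CTTTGAT in 4.48%, 6.62% and 4.49%. Regions with the KLF site had levels of -0.01, 0.01 and -0.08 log2 units in controls and 0.09, 0.03, 0.11 and 0.10 in Atg14-deficient eTregs, without overlap. For the RUNX site, Atg14-deficient library 2 was at -0.07, among the controls at -0.01, 0.02 and -0.07, and the others were at 0.13, 0.08 and 0.09. The next sequences are the more accessible distal regions with the smallest p for the RUNX and the KLF site, with only the site for which each was chosen in capitals. The Cd28 sequence, shown for its KLF site, also holds the RUNX site in 2 places, 1 of which overlaps the KLF site.
Gm30695, chr16:93552765-93552964: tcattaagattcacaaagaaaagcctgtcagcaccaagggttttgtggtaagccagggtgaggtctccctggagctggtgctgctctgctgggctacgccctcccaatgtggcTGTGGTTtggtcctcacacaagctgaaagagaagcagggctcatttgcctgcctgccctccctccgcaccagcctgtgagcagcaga
Mtmr9, chr14:63561674-63561873: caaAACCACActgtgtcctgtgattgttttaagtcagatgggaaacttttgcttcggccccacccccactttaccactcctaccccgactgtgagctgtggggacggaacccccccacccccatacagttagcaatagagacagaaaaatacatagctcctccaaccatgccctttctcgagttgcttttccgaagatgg
Cd28, chr1:60702715-60702914: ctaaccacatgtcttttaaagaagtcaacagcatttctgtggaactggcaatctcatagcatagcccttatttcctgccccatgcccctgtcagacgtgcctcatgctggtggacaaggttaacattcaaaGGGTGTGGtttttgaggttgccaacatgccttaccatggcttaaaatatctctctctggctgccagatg

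The region upstream of Cd28 was at 0.7, 0.5 and 1.1 CPM in controls and at 3.0, 5.9, 3.2 and 6.2 in Atg14-deficient eTregs (edgeR adjusted p = 0.176). The remaining sites are given in the same order, as shares of all, more accessible and less accessible distal regions. STAT (TTCNNNGAA) was in 6.74%, 8.29% and 4.93%, E2A (CAGCTG) in 13.4%, 15.2% and 9.97%, and the site of GATA factors, AGATAAG, in 2.98%, 3.69% and 2.30%. IRF (GAAANNGAA) was in 8.99%, 7.90% and 8.54%, FOX (TGTTTAC) in 3.40%, 4.17% and 4.05%, and ETS (CCGGAAG) in 2.64%, 2.79% and 2.30%. CTCF (AGGGGGCGC) was in 1.60%, 0.816% and 1.20%, CRE (TGACGTCA) in 0.636%, 0.473% and 1.10%, and NFY (GCCAATC) in 1.73%, 1.80% and 1.53%. TBX (AGGTGTGA) was in 1.49%, 1.85% and 1.64%, and EGR (GCGTGGGCG) in 0.140%, 0.0859% and 0.110%. The E-box site CACGTG was in 4.402% of distal regions, 4.81% of those more accessible and 4.27% of those less accessible, and its TFEB form GTCACGTGA, which contains it, in 0.193%, 0.0859% and 0.329%. Median GC content was 47.6% in distal regions, 48.8% in the more accessible and 45.3% in the less accessible, and its part in the site shares was tested with GC-content offsets alone. With these offsets the KLF site was in 5.07% of more accessible and 1.68% of less accessible distal regions, the AP-1 site in 8.83% and 14.4%, the NF-kappaB site in 1.37% and 2.63%, and the E2A site in 14.7% and 11.99%.

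Of the 19 sites, the library levels of the genotypes were apart for 4. Single regions were apart in 4.97% of cases with Atg14-deficient eTregs above and 3.51% with them below, but a site's level averages many regions. Atg14-deficient eTregs were above controls for KLF and E2A and below for NR4A and EGR. For the 66 regions with the EGR site the levels were 0.83, 0.81 and 0.83 log2 units in controls and 0.68, 0.80, 0.56 and 0.60 in Atg14-deficient eTregs.

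**Figure D5:**
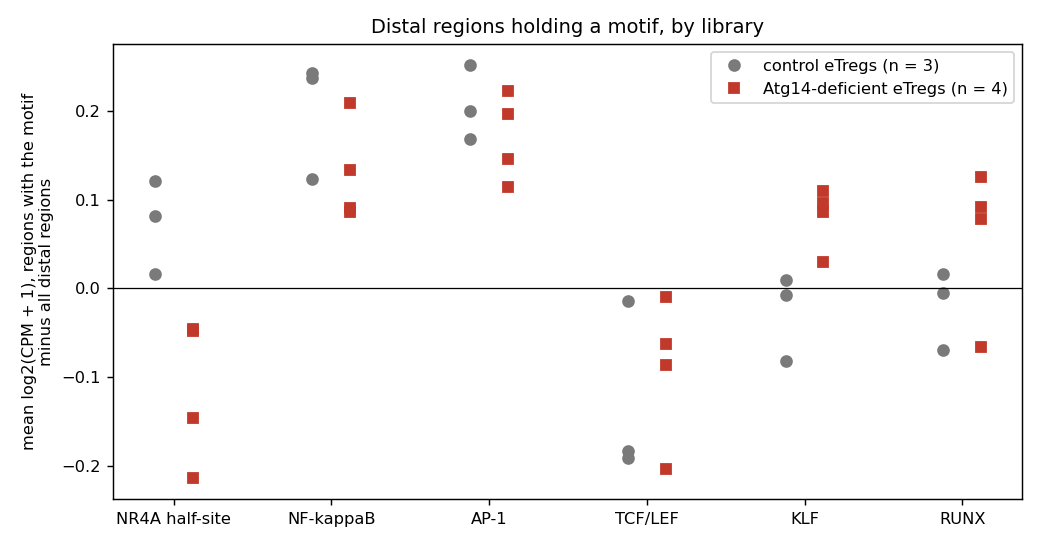
Mean log2(CPM + 1) of distal regions that hold a site minus that of all distal regions, for 6 sites, in control (circles) and Atg14-deficient (squares) eTreg libraries. Of the 6 plotted sites, the genotypes are apart for NR4A and KLF and overlap for the others.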

How the data were processed

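Bulk ATAC-seq libraries of sorted splenic eTregs and cTregs were analysed. The authors trimmed and aligned reads, removed duplicates, corrected read ends for the transposase offset, selected short nucleosome-free fragments, called peaks per library with MACS2, kept those present across replicates, merged them and deposited raw counts per region. The methods name mm9 and the submitters' processing notes mm10. All 67207 regions on chromosomes lie within GRCm38, which was used with RefSeq annotation, and positions count from 1. Counts were scaled by library totals, filtered with filterByExpr and fitted with edgeR 4.0.16 (quasi-likelihood, robust, 14 libraries in 4 groups, Benjamini-Hochberg adjustment over all 61366 tested regions, R 4.3.3). The contrast was Atg14-deficient minus control eTregs. The biological coefficient of variation was 25.6%. Counts of regions with the same nearest gene were summed and fitted likewise. A promoter region overlaps the 1000 bases before to 100 after a start. CPM levels are without a pseudocount, and site levels are log2(CPM + 1).

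Named regions were those past the adjusted threshold, the smallest p in each direction for each gene list, and the 5 promoters with the smallest p in each direction. Named genes were the 8 with the smallest p in each direction, and Apobec2, Fasl and Gm15918, the other gene sums past an adjusted p of 0.05, which were added after values were seen. Other list genes, and the sites searched, were named after values were seen. The members and lists were chosen with earlier results of these data known. Fits were tested on simulated data. DESeq2 1.42.0 and other scalings, filters and left-out libraries were alternatives. Median counts were 23 per region and library, and 3 against 4 libraries cannot give a two-sided exact permutation p below 0.0571.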

Additional observations from a re-analysis of the deposited data

Results flagged for a closer look

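Among the 4 Atg14-deficient eTreg libraries, a single library lay far from the other three in 11 of 118 values looked at, and chance gives about 1 in 20. Library 1 was highest for the upstream Bmf region, at 66.8 CPM, and for the H2-T3 sum, at 17.98 CPM. Library 2 was lowest for the regions of Gm30695, at 10.0 CPM, and of Cln3, at 5.02 CPM, and highest for the Zfp932 promoter region, at 40.2 CPM, and the Zfp932 sum, at 43.9 CPM. Library 4 was lowest for the 4930445E18Rik sum, at 57.8 CPM, and held the highest share of counts on chromosome 19, at 2.80%. The sum of the Myc, glycolysis and mTORC1 list stood apart at 4195 CPM, regions with the ETS site at 0.21 log2 units, and regions with the IRF site at -0.10. Groups of 3 were not looked at in this way.

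The Gm52297 sum had a log2 fold change of -0.74 in eTregs and 0.36 in cTregs, and in each state the libraries of the genotypes did not overlap in those directions. The difference between the states was not tested.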

How the results depend on the processing

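The 14 regions past the adjusted threshold became 48 with the DESeq2 Wald test, 9 with counts thinned to the smallest total and 1 with at least 10 counts in every library, a filter that removes regions near 0 in a genotype. Leaving out a library gave 6 to 20, with 6 without control library 1 and 7 without Atg14-deficient library 4. The 3902 regions past the unadjusted threshold became 1994 with at least 10 counts in every library, 1941 with a log2 fold change beyond 1, and 3018 to 4865 when a library was left out. The share of these that were more accessible was 55.4% with GC-content offsets, 53.8% with loess offsets and 63.0% with DESeq2's size factors. The 15 gene sums became 79 with DESeq2, 27 with loess offsets, 9 with only the 7 eTreg libraries, and 6 to 52 when a library was left out. They were 52 without Atg14-deficient library 2, 28 without control library 2, 9 without Atg14-deficient library 3, 7 without Atg14-deficient library 4 and 6 without control library 1. The cause of these changes was not tested. With the replicate block there were 14 and 3493 regions and 18 gene sums, with 9 of the 14 regions and 12 of the 15 gene sums shared. The regions of Gda, H2-T3, Gm11725, Gm30695 and Gm32457 lost their calls (edgeR adjusted p = 0.0508 to 0.0877), as did the sums of Fasl, Ddx6 and Gm15918. However, the sources used here do not say whether libraries of equal number belong together. Between control and Atg14-deficient eTregs, deviations from the group mean had correlations of -0.02, -0.22 and 0.01 for equal numbers. For unequal numbers they were between -0.23 and 0.26, so the correlations do not settle this. Equal numbers of cTreg and eTreg libraries were not examined. All 51 named regions and 19 named gene sums kept their direction in every setting run. Calls were lost in 57 of 210 refits of the 14 regions and in 51 of 225 of the 15 gene sums, and in 31 of 611 refits a named value without a call passed. Scaling by chromosome, and GC offsets for lists and sites, were chosen after seeing the data. With GC offsets the NR4A site was in 4.82% of less accessible distal regions and the RUNX site in 20.3% of more accessible ones. In whole regions in place of the central part, these were 9.31% and 27.0%, against 2.75% and 17.05% of all distal regions. Counts near 0 in a genotype leave fold changes of regions such as those of Tmprss3 and H2-T3 imprecise.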
